A study of Rattus norvegicus with 16 samples.

Results

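The family named for mir-15, mir-16, mir-195 and mir-497 comprised 6 of the 392 miRNA hairpins with reads in the rat libraries: rno-mir-15b, rno-mir-16, rno-mir-195, rno-mir-497, rno-mir-322 and rno-mir-503 (written without the prefix from here on). They were picked by name, as hairpins of a known family. Each hairpin folds into a stem whose 5' and 3' arms can both yield a mature miRNA, and the family accounted for 12 of 712 arms. Reads were summed per arm and library. The libraries came from adult male rats of the inbred strains BN-Lx (polydactyly-luxate syndrome brown Norway) and SHR (spontaneous hypertensive rats), without any treatment. A six-tissue set of 12 libraries covered spleen, heart, kidney, testis, liver and whole brain, with 1 library per tissue and strain. All 6 tissues of a strain came from the same rat. Another 4 libraries were further livers, 2 per strain, which made 3 livers per strain.

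Members of this family share all or nearly all of the bases that pair with target mRNAs, the seed. They are known as brakes on the cell cycle that act on cyclins and cyclin-dependent kinases and on the apoptosis inhibitor BCL2. They sit in clusters from which a shared primary transcript can be cut into several hairpins. In heart, mir-195 is known for rising after birth as muscle cells stop dividing. mir-322 (the rodent counterpart of human mir-424) and mir-503 are known from muscle differentiation and vessel growth.

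The 3 clusters lay on 3 chromosomes of the RGSC3.4 assembly. mir-15b (chr2:158992234-158992331, plus strand) was followed after 51 bp by mir-16 (chr2:158992383-158992477). In the GRCr8 gene table of RefSeq both lay within Smc4, which codes for a condensin subunit. mir-497 (chr10:57073846-57073914, plus strand) was followed after 255 bp by mir-195 (chr10:57074170-57074256), and no listed gene spanned them. mir-322 (chrX:140000161-140000255) and mir-503 (chrX:139999870-139999940) lay on the minus strand with 220 bp between them, within the uncharacterized gene LOC102550366. The same X-linked cluster went on with mir-351, mir-542 and mir-450a, which carry other seeds.

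The 5' arms show what the members share and where they differ. The sequences below are those of RefSeq (GRCr8), written 5' to 3', with bases 2 to 8, the seed, in capitals.
mir-15b-5p: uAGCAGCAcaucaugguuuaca
mir-16-5p: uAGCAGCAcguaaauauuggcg
mir-195-5p: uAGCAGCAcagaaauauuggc
mir-497-5p: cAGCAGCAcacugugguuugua
mir-322-5p: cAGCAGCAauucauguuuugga
mir-503-5p: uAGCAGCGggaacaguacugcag
Of the 694 mature rat miRNAs in the RefSeq table, 5 carried the seed AGCAGCA, and these were the 5' arms of mir-15b, mir-16, mir-195, mir-497 and mir-322. The seed AGCAGCG belonged to mir-503-5p alone. Over the first 20 bases, the seed included, the closest pair came from different clusters: mir-16-5p and mir-195-5p were identical at 18 of them. mir-15b-5p shared 15 of these bases with mir-497-5p and with mir-322-5p but 13 with its neighbour mir-16-5p. mir-503-5p shared 9 to 11 of 20 with the others. All 12 mature arms were found in RefSeq.

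Known-miRNA depth set how finely each member could be measured. The testis libraries held 26880 (BN-Lx) and 29131 (SHR) reads on hairpins, the other six-tissue libraries 403453 to 1064894 and the further livers 1167607 to 3229461. The study used more PCR cycles for the testis libraries and the SHR liver of the six-tissue set. The summed miRNA markers of brain, liver, spleen, heart and testis were each highest in both libraries of their tissue. The kidney list, which holds mir-192, mir-194 and mir-200b, was higher in liver (176 in the BN-Lx six-tissue liver) than in the lower kidney library (59.9). Of this list, mir-200b-3p was highest in kidney (2.14 in BN-Lx and 6.31 in SHR, at most 0.697 in any other library). The rarer mir-200b-5p stood at 0.00144 and 0.395 there. Levels below are reads over the library's outlier-corrected mean (ocm), an average over known hairpin arms that leaves out the 3 with most reads. A level of 1 is thus the read count of an average arm. Mature arms have nearly equal lengths, so no length correction was made. Small RNAs are captured into libraries with unequal efficiency, as the study points out, and ratios between different arms or hairpins are therefore ratios of reads, which may differ from those of molecules.

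Family reads made up 0.278% (a further BN-Lx liver) to 1.72% (BN-Lx spleen) of a library. The members contributed very unequally. mir-15b-5p had 39485 reads over the 16 libraries and mir-497-5p 14786. mir-322-3p had 12399 reads, more than mir-322-5p (7729) and mir-195-5p (9471). mir-16-5p, the namesake of the group, had 524 reads and mir-503-5p 311. The remaining 3' arms were rarer, with 964 reads for mir-497-3p, 584 for mir-15b-3p, 209 for mir-503-3p, 83 for mir-195-3p and 9 for mir-16-3p.

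mir-15b-5p differed most between tissues. Its levels were 10.2 (BN-Lx) and 8.02 (SHR) in spleen and 5.29 and 9.07 in testis. They were 1.66 and 4.29 in the six-tissue livers, 2.29 and 2.42 in heart, 1.10 and 0.886 in kidney, and 0.564 and 0.562 in brain. Spleen and testis overlapped at the top, liver and heart overlapped below them, and kidney and brain each stood apart from the next tissue in both strains. The mean of spleen was 16.2 times that of brain.

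mir-16-5p was low throughout and followed another order. Its levels were 0.0534 and 0.0460 in kidney and 0.0504 and 0.0473 in spleen. They were 0.0218 and 0.0275 in heart, 0.0229 and 0.0260 in the six-tissue livers, and 0.0239 and 0.0134 in brain. Kidney and spleen overlapped, and heart, liver and brain overlapped at a lower level. No read was found in either testis library. A count of 0 allows up to 3 reads, equal to a level of 0.0957 in the BN-Lx library and 0.0859 in the SHR library, so testis could have held as much mir-16-5p as any other tissue.

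**Figure D1:**
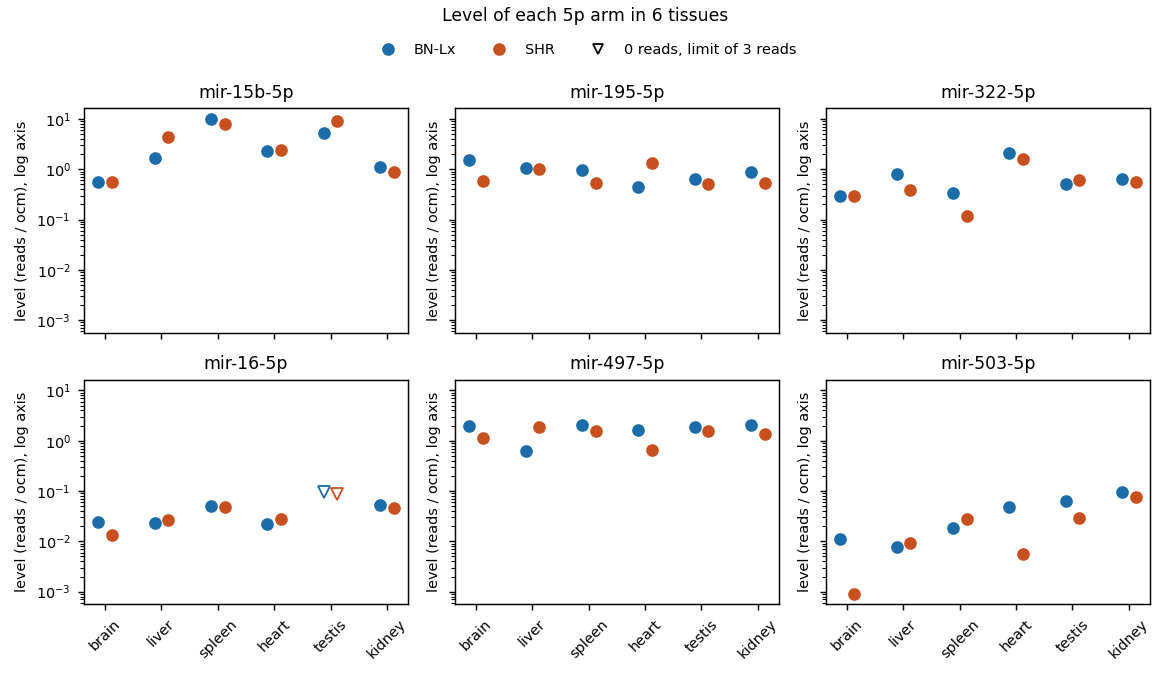
Level (reads over the outlier-corrected mean, log axis shared by all panels) of the 5' arm of each member in the 6 tissues, with 1 point per library and strain. Open triangles mark libraries with 0 reads, drawn at the level of 3 reads. mir-15b-5p was highest in spleen and testis, mir-322-5p in heart and mir-503-5p in kidney, while mir-195-5p and mir-497-5p lay within narrow bands.

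The 5' arms of the chromosome 10 cluster were spread evenly. mir-195-5p ranged from 0.443 (BN-Lx heart) to 1.502 (BN-Lx brain), and its highest tissue mean was 1.82 times the lowest. In heart its levels were 0.443 in BN-Lx and 1.35 in SHR, and in brain 1.502 and 0.596. mir-497-5p ranged from 0.640 (BN-Lx six-tissue liver) to 2.09 (BN-Lx kidney), with a highest tissue mean 1.62 times the lowest. Its levels in heart were 1.603 and 0.648. For both miRNAs, neighbours in the order of tissues overlapped throughout.

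The X-linked pair had different leading tissues. mir-322-5p was highest in heart (2.07 in BN-Lx and 1.603 in SHR), above every other library of the set. It reached 0.808 and 0.395 in the six-tissue livers, 0.641 and 0.550 in kidney, and 0.510 and 0.601 in testis. Brain (0.292 and 0.291) and spleen (0.342 and 0.118) were lowest. Heart stood apart from the rest, liver, kidney and testis overlapped, and so did brain and spleen. mir-503-5p was highest in kidney (0.0953 and 0.0775). It was read at 0.0638 and 0.0286 in testis, but these values rest on 2 reads and 1 read. Its levels were 0.0480 and 0.00551 in heart, 0.0187 and 0.0273 in spleen, 0.00762 and 0.00945 in the six-tissue livers, and 0.0113 and 0.000893 in brain. Kidney stood apart from all other libraries, while the 2 heart libraries, from 22 reads and 4 reads, lay far apart, with spleen and liver between them.

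Whether a member differed among the 6 tissues was tested with edgeR's quasi-likelihood F test with strain as an additive term and Benjamini-Hochberg adjustment over all arms. Of the 457 arms tested, 83.6% were called at an adjusted p of 0.05. Of the family, 10 arms entered the test and 6 were called, while mir-16-3p and mir-195-3p had too few reads. The strains served as the 2 replicates of a tissue. The additive term takes up a strain difference common to all tissues, so the spread includes only strain differences that vary between tissues. Called were mir-15b-5p (adjusted p = 8.24e-05), mir-322-5p (0.000853), mir-503-3p (0.00922), mir-503-5p (0.00981), mir-15b-3p (0.0123) and mir-16-5p (0.0265). The call of mir-16-5p was lost with DESeq2 (0.0781) and with each of the other scalings (0.0702 to 0.103). It was also lost without BN-Lx spleen (0.0772), SHR brain (0.0685) or SHR spleen (0.0627). The call of mir-15b-3p was lost with scaling to total reads (0.0790) and without BN-Lx spleen (0.111), and that of mir-503-3p without BN-Lx heart (0.0823).

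Not called were mir-322-3p (adjusted p = 0.0629), mir-195-5p (0.184), mir-497-3p (0.272) and mir-497-5p (0.411). mir-322-3p had discordant strains in kidney (4.70 in BN-Lx, 0.344 in SHR) and in heart (1.03 and 3.401), with 0.480 to 1.25 elsewhere in the set. It passed without BN-Lx kidney (0.000918), without SHR kidney (8.34e-05) or without BN-Lx heart (0.0130), and without the filter on low counts (0.000144). mir-195-5p passed without BN-Lx heart (0.0365) and mir-497-3p without SHR liver (0.0219).

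**Figure D2:**
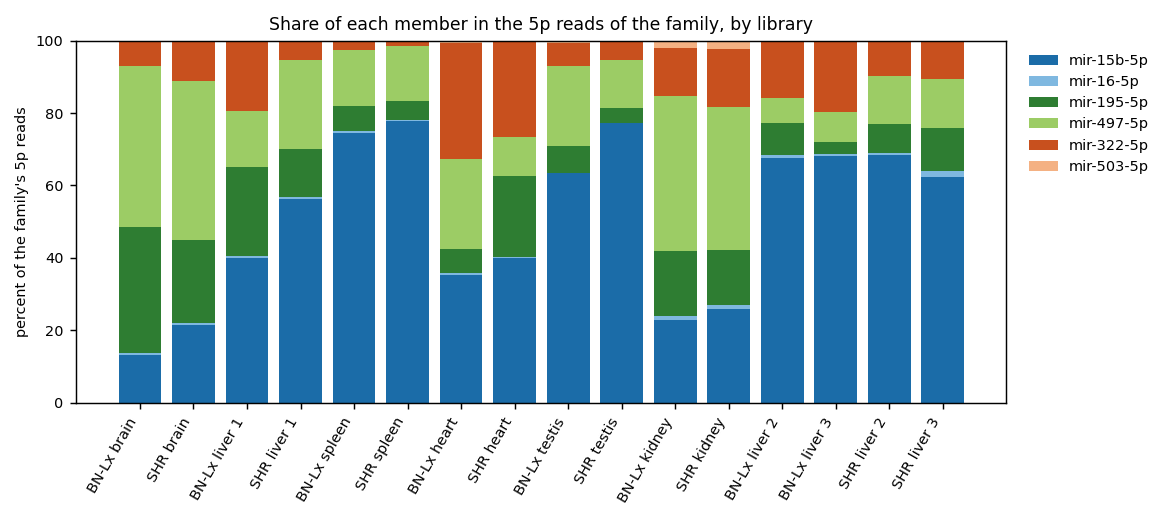
Share of each 5' arm among the 5' arm reads of the family (percent, stacked to 100) in each of the 16 libraries. mir-15b-5p made up most of these reads in spleen, testis and 5 of the 6 livers, and mir-497-5p was the largest part in brain and kidney.

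Seen as a share of the family's own 5' reads, which no scaling between libraries touches, the tissues had different leading members. mir-15b-5p made up 74.6% (95% exact binomial interval 73.8 to 75.4%) of these reads in BN-Lx spleen and 77.7% in SHR spleen, and 63.4% and 77.1% in testis. In liver it held 39.8% (BN-Lx) and 56.4% (SHR) in the six-tissue set and 62.3 to 68.4% in the further livers. It made up 13.1% and 21.5% in brain, where mir-497-5p led with 44.6% and 43.9%. mir-497-5p also led in kidney with 43.1% and 39.5%. In heart mir-15b-5p held 35.4% and 39.9%, and mir-322-5p, with 31.9% and 26.5%, had its largest shares of the 16 libraries there. mir-16-5p reached at most 1.67% and mir-503-5p at most 2.25%. These intervals cover counting error only, because PCR copies of a molecule were not told apart.

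To place each member, each tissue was set against the mean of the other 5 in the same fit. In spleen, 3 members were higher and none lower. In this contrast 18.6% of all arms were higher and 10.7% lower (85 and 49 arms, against 57 and 57 when scaled to total reads). mir-15b-5p rose by a log2 fold change of 2.69 (SE 0.34, adjusted p = 8.93e-05) and mir-15b-3p by 2.23 (SE 0.55, 0.00913). The median log2 change of the 10 members was 0.66 and that of all arms 0.05. mir-16-5p had 2.48 (SE 0.74, 0.0255). That value depends on the empty testis libraries: without testis it was 1.11 (0.0829). Its call was also lost with RLE size factors (0.0519) and with total reads (0.0817). With total reads mir-322-5p was called lower in spleen (-1.57, 0.0311, against -1.10, 0.124, with TMM), so that 2 members were higher and 1 lower.

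Spleen is rich in blood cells, and their miRNAs were measured beside these results. The summed level of 5 blood-cell miRNAs (mir-451, mir-144, mir-223, mir-142 and mir-150) was 239 and 223 in spleen, 42.6 and 30.2 in heart, and 25.5 and 27.1 in the six-tissue livers. It was 15.3 and 14.8 in testis, 9.68 and 5.63 in kidney and 7.42 and 9.42 in brain. Both these markers and mir-15b-5p were highest or near the highest in spleen and low in kidney and brain, whereas in testis mir-15b-5p was high and the markers were not. Their part in the spleen result was not tested. In whole tissue, more cells of a type and more RNA per cell cannot be told apart.

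In heart, mir-322-5p rose by 2.62 (log2, SE 0.39, adjusted p = 0.000289) and mir-503-3p by 2.36 (SE 0.54, 0.00738). They were 2 of 10 members, against 12.7% of all arms higher and 6.78% lower (58 and 31 arms, or 45 and 64 when scaled to total reads). The levels of mir-503-3p were 0.0546 and 0.0399 in heart and at most 0.0319 in any other library of the set. The median of the members was 0.66 and that of all arms -0.33. mir-195-5p (0.78, adjusted p = 0.311) and mir-497-5p (-0.07, adjusted p of 1) of the cluster known from heart muscle did not pass.

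In kidney, mir-503-5p rose by 2.72 (log2, SE 0.61, adjusted p = 0.00699), and 15.5% of all arms were called higher (71 arms, or 54 with RLE size factors). mir-15b-5p fell by 1.36 (SE 0.43, 0.0412), with 7% of all arms called lower (32 arms, or 49 with RLE size factors). Without the testis libraries this value was -1.24 (0.0626). mir-16-5p had 2.35 (SE 0.75, 0.0432), which became 0.92 (0.169) without testis and missed the threshold with RLE size factors (0.0798) and without the filter on low counts (0.0732). Thus the 5' arms of the chromosome 2 cluster had opposite signs in kidney, although the value of mir-16-5p rests on the empty testis libraries.

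In brain, 5 of 10 members were lower and none higher, whereas 38.9% of all arms were higher and 23% lower. mir-15b-5p had a log2 fold change of -3.04 (SE 0.49, adjusted p = 0.000162), mir-503-5p -2.84 (SE 0.86, 0.0120) and mir-15b-3p -2.37 (SE 0.74, 0.0139). mir-503-3p had -1.94 (SE 0.69, 0.0262) and mir-322-5p -1.46 (SE 0.51, 0.0233). mir-497-5p (-0.45, 0.479) and mir-195-5p (-0.09, 0.960) were not called. The median of the members was -1.47 and that of all arms 0.46.

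The brain values depend on the scaling, since the median of all arms was itself shifted, by 0.46 with TMM, 0.82 with RLE size factors and 1.19 with total reads. The arms called were 178 higher and 105 lower with TMM and 214 and 70 with total reads. The number of members called was 5, 3 and 1, and with total reads only mir-15b-5p stayed (-2.34, adjusted p = 0.000567). mir-16-5p, not called, was -0.03 with TMM and 0.83 with total reads, and without the empty testis libraries it was called lower (-1.66, adjusted p = 0.0154). mir-322-5p lost its call with RLE size factors (-1.09, 0.0640) and with total reads (-0.78, 0.151). Below the median of all arms, mir-15b-5p lay by 3.50, 3.48 and 3.53, mir-503-5p by 3.30, 3.33 and 3.35 and mir-322-5p by 1.93, 1.91 and 1.97. A scaling shifts all arms of a contrast nearly alike, so these distances could hardly move and are no check of the brain values.

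In testis and liver no member was called. In testis 11.2% of all arms were higher and 13.6% lower, and in liver 13.8% and 12%. mir-15b-5p in testis had a log2 fold change of 0.82 (SE 0.37, adjusted p = 0.141). It passed with RLE size factors (1.18, 0.0210) and with total reads (1.85, 0.00111). The arms called in testis were 51 higher and 62 lower with TMM and 101 and 20 with total reads. mir-15b-5p lay 1.69, 1.69 and 1.67 above the median of all arms under the 3 scalings, a distance that scaling can hardly change.

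The neighbours of mir-322 and mir-503 on the X chromosome had a like brain pattern. mir-450a-5p (-2.30, adjusted p = 0.00138), mir-542-3p (-1.77, 0.00279), mir-351-5p (-1.64, 0.00749) and mir-542-5p (-1.56, 0.0117) were all lower in brain with TMM. With total reads mir-450a-5p (0.00787) and mir-542-3p (0.0252) stayed, whereas mir-351-5p (0.0658) and mir-542-5p (0.0856) did not. The 4 arms also differed among tissues (adjusted p = 0.0107 to 0.0176). None of them passed in heart, where mir-351-5p came nearest (1.06, SE 0.37, 0.0654). The levels of mir-351-5p were 1.63 and 0.544 in testis, 0.735 and 0.326 in kidney and 0.557 and 0.395 in heart.

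Hairpins cut from the same transcript need not end in equal numbers of mature miRNAs, so the partners were compared within each library. mir-15b-5p exceeded mir-16-5p in all 16 libraries. The ratio was 202 and 170 in spleen, 105 and 87.8 in heart, 72.8 and 165 in the six-tissue livers, 23.6 and 42.0 in brain, and 20.6 and 19.3 in kidney. These ratios carry wide counting error, as mir-16-5p had few reads: 9 and 11 in these livers, 10 and 20 in heart, and 43 in BN-Lx spleen. Testis had 166 reads and 317 reads of mir-15b-5p with none of mir-16-5p. Kidney lay below spleen in both strains by more than the strains differed in either tissue, while the level of mir-16-5p overlapped between these tissues. In the further livers the ratio was 37.3 to 156.

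**Figure D3:**
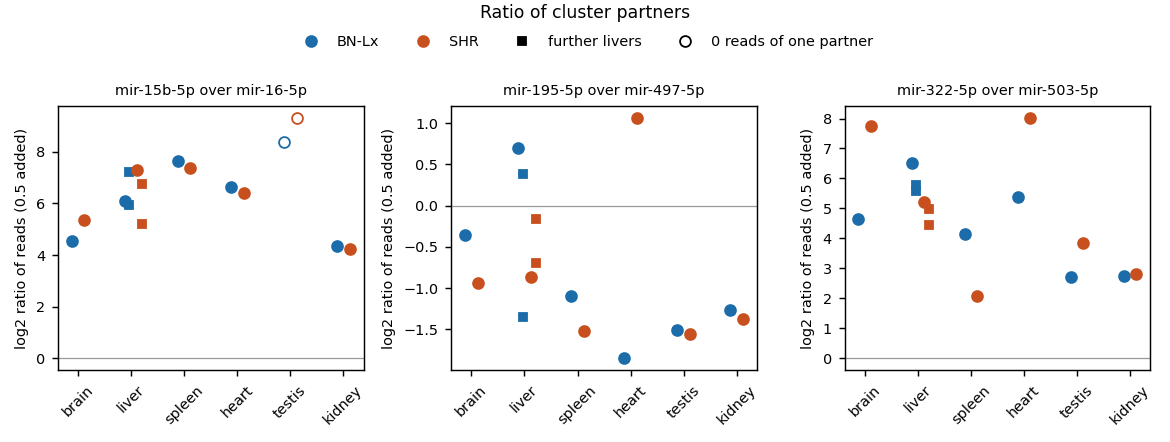
Log2 ratio of the 5' arm reads of the cluster partners, with 0.5 reads added to each, in the 6 tissues. Circles are the libraries of the six-tissue set, squares the further livers, open circles testis libraries with 0 reads of mir-16-5p, and colours the strains. mir-15b-5p over mir-16-5p was lowest in kidney, with close values of the strains, whereas mir-195-5p over mir-497-5p had both its lowest and its highest value in heart.

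An exact permutation test of tissue labels within strain (two-sided in effect, since it tests the between-tissue sum of squares) was run on the log2 ratio, with 0.5 reads added, of 78 pairs of neighbouring hairpins. None (0%) was called after Benjamini-Hochberg adjustment and 16 had an unadjusted p under 0.05. With 720 arrangements the smallest p is 0.00139, and mir-34c-5p over mir-34b-3p, which reached it, had an adjusted p of 0.108. A single pair thus could not be called, and the lack of calls says little about the pairs. For mir-15b-5p over mir-16-5p the exact p was 0.00694 (adjusted p = 0.135). Its tissue means spanned 4.55 log2 units, against a median of 2.44 over the 78 pairs. The strains differed by 0.60 log2 units (root mean square over tissues), against a median of 1.06. The highest tissue mean was that of testis, where mir-16-5p had 0 reads. Without testis the span was 3.21 (kidney 4.30 to spleen 7.51). The adjusted p was then 0.193, from fewer arrangements, which leave even less room for a call.

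mir-497-5p and mir-195-5p were closer to each other. mir-195-5p had 0.277 (BN-Lx heart) to 2.09 (SHR heart) times the reads of mir-497-5p, and exceeded it in 3 of 16 libraries: SHR heart, the BN-Lx six-tissue liver (1.62) and a further BN-Lx liver (1.31). In spleen (0.467 and 0.347), kidney (0.417 and 0.385) and testis (0.345 and 0.333) the strains were close. No difference of the ratio among tissues was detected (exact permutation p = 0.629, adjusted p = 0.672), and the strains differed by 1.38 log2 units (root mean square).

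mir-322-5p exceeded mir-503-5p in all 16 libraries, by 4.33 times in SHR spleen and 6.73 and 7.09 times in the kidneys up to 291 times in SHR heart. In SHR brain 326 reads stood against 1, a mir-322-5p share of 99.7% (95% exact binomial interval 98.3 to 99.99%). The heart libraries differed, with 43.0 in BN-Lx. The test used the arm with most reads, mir-322-3p, against mir-503-5p, and gave an exact permutation p of 0.522 (adjusted p = 0.605). The 3' arms gave ratios of mir-322-3p over mir-503-3p from 11.8 (SHR kidney) to 250.2 (BN-Lx kidney).

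Both arms of mir-322 were read in quantity, and which arm led varied between libraries. The 5' arm supplied 12.01% of its reads in BN-Lx kidney (444 reads against 3253 of the 3' arm) and 61.5% in SHR kidney. In heart it supplied 66.7% in BN-Lx and 32.04% in SHR. The shares in brain were 37.8% and 27.1%, in spleen 26.5% and 13.2%, in testis 35.6% and 40.4%, and in the six-tissue livers 39.2% and 31.4%. All 4 further livers had more 5' than 3' reads (50.2 to 74.4%). Over all 16 libraries the 3' arm led in 10.

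**Figure D4:**
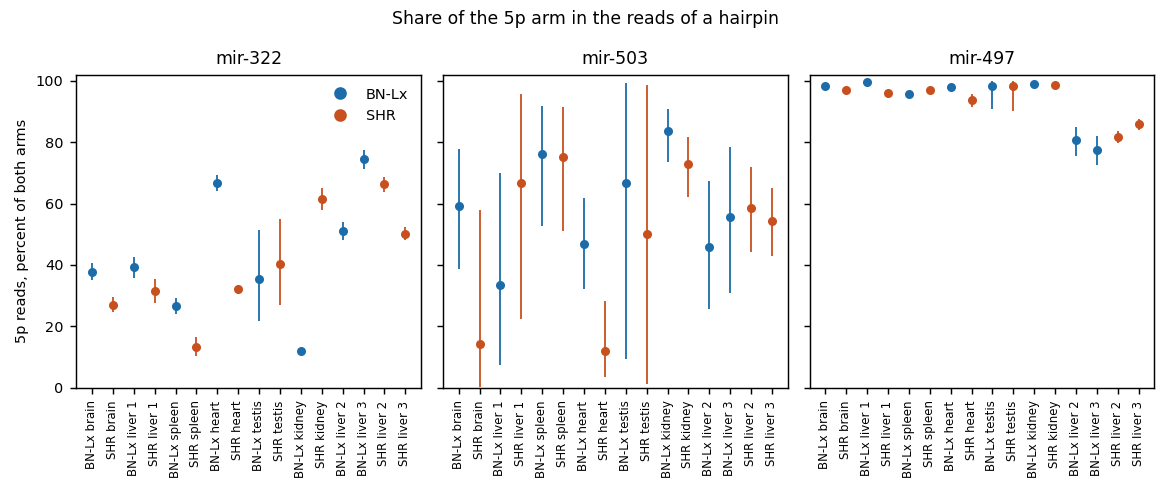
Share of 5' arm reads (percent of the 5' and 3' reads of the hairpin) of mir-322, mir-503 and mir-497 in each library, with 1 point per library coloured by strain and exact 95% binomial intervals as bars. mir-322 ranged from 12.01% to 74.4% and mir-503 from 12.1% to 83.5%, while mir-497 lay at 93.8% or more in the six-tissue set and lower in the 4 further livers.

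The 5' arm was the main arm of mir-15b (93.7 to 100% of reads), mir-16 (91.7 to 100% in the 14 libraries with reads) and mir-195 (97.4 to 100%). For mir-497 it supplied 93.8 to 99.6% in the six-tissue set, but 77.6 to 85.8% in the 4 further livers. Livers of the 2 sets did not overlap here (99.6%, from 252 reads against 1, and 95.9% in the six-tissue livers). How many of all hairpins separate these 2 and 4 livers in this way was not counted, so no result about mir-497 follows. For mir-503 it ranged from 12.1% (SHR heart, 4 reads against 29) to 83.5% (BN-Lx kidney, 66 against 13). As for the partners, a single hairpin at the smallest possible p could not be called in the exact permutation test on the arm ratio. Over 123 hairpins the test called none (0%), with 24 at an unadjusted p under 0.05. The values of the members were 0.0931 for mir-15b (adjusted p = 0.273), 0.175 for mir-503 (0.368), 0.450 for mir-497 (0.654) and 0.756 for mir-322 (0.837). mir-16 and mir-195 fell under the minimum of 10 reads per arm and library on average.

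Because the seed is counted from the 5' end, the start of the reads decides which seed an arm carries. Of the 5' arms, mir-497-5p had 99.3% of its reads at its most used start, mir-15b-5p 99.1%, mir-503-5p 99.04%, mir-195-5p 97.9% and mir-16-5p 97.5%. The median over 421 arms with at least 100 reads was 96.9% (quartiles 87.5 and 99.01%). mir-322-5p was less uniform, with 91.3%. For all 10 arms that could be compared, the most used start was that of RefSeq.

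The arms with a second start are shown with the seed each start gives in capitals, the RefSeq start second for mir-497-3p and mir-322-5p and last for mir-322-3p.
mir-497-3p, 1 base earlier: uCCAAACCacacugugguguuag
mir-497-3p: cCAAACCAcacugugguguuaga
mir-322-5p, 1 base earlier: gCAGCAGCaauucauguuuug
mir-322-5p: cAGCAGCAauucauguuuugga
mir-322-3p, 2 bases earlier: cAAAACAUgaagcgcugcaaca
mir-322-3p, 1 base earlier: aAAACAUGaagcgcugcaaca
mir-322-3p: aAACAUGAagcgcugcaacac
For mir-497-3p the earlier start took 439 reads (45.5%) and the RefSeq start 479 reads (49.7%). For mir-322-5p the earlier start, whose seed CAGCAGC is not that of the family, took 660 reads (8.54%). For mir-322-3p the earlier starts took 13.0% and 9.73%, and the RefSeq start 77.2%. mir-503-3p started 1 base later in 22.5% of its 209 reads.

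Of the minor starts, those 1 base earlier of both mir-322 arms had ranges that did not overlap between the 2 sets of libraries, and the others overlapped. How many arms of the whole series separate in this way was not counted, so no result about mir-322 follows. The earlier start of mir-322-5p took 2.80 to 6.16% of its reads in the 4 further livers and 6.98 to 43.8% in the 12 six-tissue libraries. The start of mir-322-3p 1 base earlier took 4.07 to 4.60% and 6.45 to 14.8%. The highest value of mir-322-5p came from a testis library with few reads. The start of mir-322-3p 2 bases earlier took 10.7 to 12.9% in the further livers and 6.34 to 16.5% in the six-tissue set. The earlier start of mir-497-3p (46.6 to 61.4% against 0 to 100%) and the later start of mir-503-3p (0 to 31.6% against 0 to 100%) overlapped as well, on few reads per library. Tissue and set cannot be told apart here beyond liver. The 3' ends also differed among members: 98.2% of mir-497-5p reads at the main start were 21 nt long, against 55.0% of mir-15b-5p reads at 21 nt and 56.2% of mir-195-5p reads at 22 nt.

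Between strains, the livers were the only tissue with replicate animals. edgeR's quasi-likelihood test over 270 arms called none (0%), with a smallest adjusted p of 0.994 and 8 arms (2.96%) at an unadjusted p under 0.05. DESeq2 called none either, with 10 at an unadjusted p under 0.05. The labels name replicate livers, and the study describes the livers as those of 3 rats per strain. p-values measure the spread between these samples, which was wide (biological coefficient of variation 0.624).

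mir-15b-5p was read in the BN-Lx livers at 1.66, 2.51 and 2.45 (mean 2.21 ± 0.47, SD, n = 3) and in the SHR livers at 4.29, 3.26 and 2.71 (3.42 ± 0.80). The strains did not overlap, but the log2 fold change of SHR over BN-Lx, 0.68 (SE 0.38), was not called (adjusted p = 0.994). mir-322-5p moved the other way without overlap, with 0.808, 0.580 and 0.692 in the BN-Lx livers (0.693 ± 0.114) against 0.395, 0.449 and 0.439 in the SHR livers (0.428 ± 0.029). Its log2 fold change was -0.58 (SE 0.37, adjusted p = 0.994). These were the 2 members of 10 without overlap between strains, against 8.52% of all arms (23 of 270). With 3 against 3 livers an exact permutation test cannot give a p under 0.1.

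mir-497-5p had the smallest unadjusted p of the members. Its levels were 0.640, 0.251 and 0.302 in BN-Lx (0.398 ± 0.211), and those of the SHR livers were 1.87, 0.626 and 0.588 (1.03 ± 0.73). Each SHR liver was above the BN-Lx liver of the same number, but the labels do not say that these were paired, and the groups overlapped. The log2 fold change was 1.42 (SE 0.56, unadjusted p = 0.0383, adjusted p = 0.994). Its partner mir-195-5p was read at 1.04, 0.328 and 0.118 in BN-Lx (0.494 ± 0.481). The SHR livers gave 1.02, 0.385 and 0.523 (0.644 ± 0.336), and the log2 fold change was 0.46 (SE 0.76).

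The rarer 5' arms overlapped widely. mir-16-5p averaged 0.0263 ± 0.0127 over BN-Lx livers and 0.0429 ± 0.0259 over SHR livers (SD, n = 3 each), for a log2 fold change of 0.80 (SE 0.68). mir-503-5p averaged 0.0105 ± 0.0025 and 0.0145 ± 0.0053, for a log2 fold change of 0.59 (SE 0.60). The median log2 change of the 10 members was 0.64 and that of all arms -0.01.

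**Figure D5:**
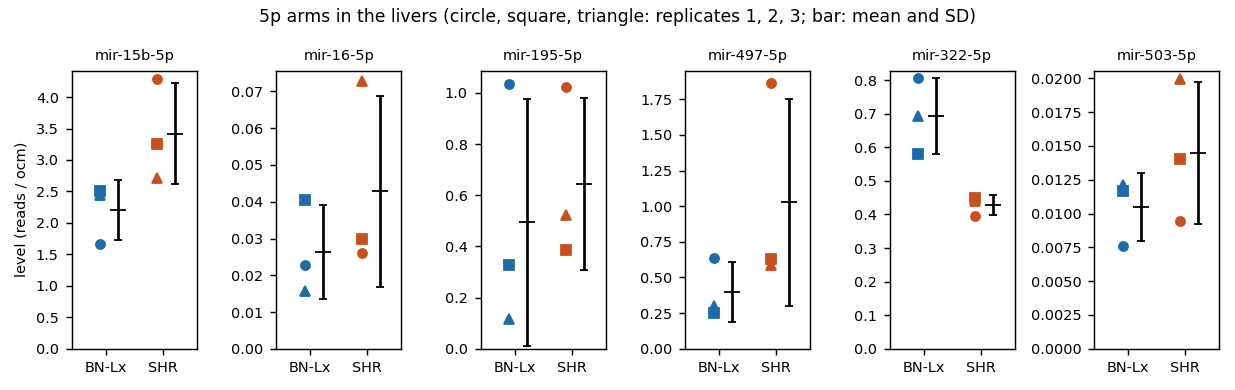
Level (reads over the outlier-corrected mean, linear axes from 0 that differ between panels) of each 5' arm in the 3 livers of each strain. Circles are the six-tissue livers, squares and triangles the further livers, and bars the mean and SD (n = 3). mir-15b-5p was higher in all 3 SHR livers and mir-322-5p in all 3 BN-Lx livers, and the six-tissue livers gave the highest values of mir-497-5p in both strains.

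The livers also differed by set. mir-497-5p was higher in the six-tissue livers than in the 4 further livers by 1.19 (log2, SE 0.20, adjusted p = 0.0180), with 9.26% of all arms called higher. Its own 3' arm had -2.01 (SE 0.86, 0.147), which was not called. Of the neighbours, mir-450a-5p was lower in the six-tissue livers by a log2 value of -2.50 (SE 0.34, 0.00979), with 18.5% of all arms called lower. Its levels were 0.226 and 0.191 in the six-tissue livers and 0.606 to 1.57 in the further livers, whereas mir-322-5p and mir-503-5p of the same cluster were not called (-0.13, 0.710, and -0.99, 0.203). The sets differed in animals, in depth and in the shortest read listed (17 nt in the six-tissue set and 15 nt in the further livers), and the parts of these cannot be told apart. The heart miRNA mir-1-3p stood at 0.746 and 0.713 in replicate 3 of the livers and at no more than 0.0686 in the other livers. Its part in the values of that replicate was not tested.

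Strain differences in the other tissues rest on 1 library per strain and were tested against the strain difference in liver, with the lone libraries assumed to vary as the livers do. No member was called in any of the 5 tissues, nor was any arm in brain, spleen, testis and kidney (0% of 500). In heart 1 arm was called (0.2%). The members with an unadjusted p under 0.05 were mir-503-5p in brain (-4.18, SE 1.63, unadjusted p = 0.0319) and in heart (-3.81, SE 1.51, 0.0340), mir-322-3p in kidney (-3.59, SE 1.38, 0.0296) and mir-497-5p in heart (-2.79, SE 1.12, 0.0359). All had adjusted p-values of 0.9998 or more.

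As a description, the arms outside the family whose scaled log2 read counts ran most like each 5' arm were ranked by Pearson's r over the 12 six-tissue libraries, which share tissues, animals and depth. mir-15b-5p was most like mir-92a-2-3p (0.931), hsa-mir-362-3p, a rat hairpin named for its human homologue (0.930), and mir-872-3p (0.888). mir-322-5p was most like mir-99a-5p (0.849) and the heart-muscle miRNAs mir-499-3p (0.831) and mir-208-5p (0.818). mir-503-5p was most like mir-10b-5p (0.810), its cluster neighbour mir-450a-5p (0.787) and mir-199a-5p (0.751).

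The remaining 5' arms were ranked over the same 12 libraries, and not without the testis libraries, in which mir-16-5p had 0 reads. mir-16-5p was most like mir-26b-3p (0.926), mir-652-5p (0.904) and mir-26a-5p (0.893). mir-195-5p was most like mir-26a-5p (0.810), let-7d-5p (0.780) and mir-28-3p (0.758), and mir-497-5p most like mir-425-3p (0.728), mir-652-5p (0.688) and mir-140-5p (0.666). Among the members, several of these values rest on the testis libraries, in which mir-16-5p had 0 reads, and they are given with and without them (12 and 10 libraries). r was 0.10 and 0.66 for mir-15b-5p and mir-16-5p, 0.70 and 0.79 for mir-15b-3p and mir-16-5p, and 0.27 and -0.0018 for mir-195-5p and mir-497-5p. It was 0.24 and 0.28 for mir-322-5p and mir-503-5p, and 0.82 and 0.86 for mir-322-5p and mir-503-3p, both highest in heart. For mir-16-5p and mir-195-5p, the pair from different clusters that is closest in sequence, it was 0.71 with the testis libraries and 0.26 without them.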

How the data were processed

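Small RNA of 16 libraries was sequenced on SOLiD. The authors placed reads without mismatch on rat hairpins (miRBase 12 and their own, RGSC3.4) and deposited estimated counts per read start and end, each read shared evenly among matching hairpins. All 1217 family entries were whole numbers. Sequences were taken from RefSeq. Reads were summed per arm, 5' or 3', and library, rounded, and tested with edgeR 4.0.16 in R 4.3.3 (TMM, filterByExpr, quasi-likelihood, Benjamini-Hochberg over all arms, called at an adjusted p of 0.05). Alternatives were DESeq2 1.42.0, RLE, total-read and ocm scaling, no filter, a minimum of 17 nt, and left-out libraries. Permutation tests, levels, read ends and figures used Python 3.11.15, numpy 2.4.6, pandas 2.3.3, scipy 1.17.1 and matplotlib 3.10.9. The tests were checked on simulated data with large changes and less spread than the livers and most ratios had. That check does not give their power on these data.

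Depth was 26880 to 3229461 reads, and a count of 0 allows up to 3 reads. Named were both arms of every member, the 3 other hairpins of the X-linked cluster and, per 5' arm, the 3 most correlated arms outside the family. The members and lists were chosen with earlier results of these data known. Livers of the same replicate number in the 2 strains deviated together (r = 0.668, 0.571 and 0.300, the six-tissue livers as number 1). The labels do not say that these livers were paired. The main liver test had strain as its only term, and a block by replicate number was an alternative. No library was left out of the main tests.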

Additional observations from a re-analysis of the deposited data

How the results depend on the processing

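Total counts of arms called, both directions together, kept within 1.5 times of their main value under the alternatives, except that the single arm whose strain difference in heart differed from that in liver became 0 with total reads. Counts in 1 direction moved more with total reads: higher and lower arms were 34 and 101 in liver (63 and 55 with TMM), 101 and 20 in testis (51 and 62) and 45 and 64 in heart (58 and 31). The number of family arms called among tissues was 4 to 7. Blocking the livers by replicate left 0 arms called (smallest adjusted p 0.490, with 22 arms at an unadjusted p under 0.05), and so did a batch term for the 2 sets of livers (0.185), which was added after the data were seen. Leaving strain out of the tissue test gave 401 arms and the same number of family arms, 6.

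Of the values of single arms and pairs, 441 kept direction and call or hardly moved, 14 gained a call, 24 lost one, 10 turned and 18 values without a test moved, all without the testis libraries (correlations between members, and the range of the mir-15b-5p to mir-16-5p ratio). None of those that turned was a call in the main test. Among these were liver strain differences, which with 1 liver left out ranged from -0.71 (without SHR replicate 1) to 2.11 for mir-15b-3p, from -0.16 (without BN-Lx replicate 3) to 1.43 for mir-195-5p, from -0.94 to 0.26 (without BN-Lx replicate 1) for mir-322-3p and from -0.70 to 0.24 (without SHR replicate 1) for mir-503-3p. mir-15b-3p was also below 0 without BN-Lx replicate 3 (-0.02), and mir-503-3p above 0 without BN-Lx replicate 1 (0.0017) and in the 4 further livers alone (0.31). In brain, mir-16-5p turned to 0.38 with RLE size factors, 0.83 with total reads and 0.011 without the filter, and reached -1.66 (adjusted p = 0.0154) without the testis libraries, added after the data were seen. The causes were not tested. Testis depth limits mir-16-5p, mir-503-5p and all 3' arms there.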
